A study of Mus musculus with 407 samples.

Results

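The proteasome subunit genes were taken as all gene symbols that start with Psm, followed by a letter from a to g and a number, without the immunoproteasome genes Psmb8, Psmb9 and Psmb10. The rule gave 47 of the 24458 symbols in the count tables. By role they were 8 genes of the alpha ring, 8 of the beta ring, 6 ATPases of the base, 11 other subunits of the regulatory particle, 6 activators or inhibitors and 7 assembly chaperones. The remaining member, Psmc3ip, encodes a protein of meiotic recombination and matched the rule by its symbol alone.

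The proteasome is the main protease of the cytosol and the nucleus. Its barrel-shaped core particle is built of alpha rings, which gate the entrance, and beta rings, which hold the catalytic sites. The regulatory particle caps the barrel, binds ubiquitinated proteins, removes the ubiquitin and unfolds the substrate with a ring of ATPases. In skeletal muscle the ubiquitin-proteasome system degrades myofibrillar proteins, and its subunit genes are known to be induced together by the transcription factor encoded by Nfe2l1.

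Total RNA was sequenced from the soleus, gastrocnemius, tibialis anterior and diaphragm of female and male C57BL/6J mice, which were 6, 12 or 18 months old or 21, 24 or 27 months old. The 407 libraries fell into 48 groups of 6 to 10, with 8 libraries at 6 months and 10 at 27 months in each muscle and sex. Mice of an age were collected on the same day, so that age and collection day cannot be told apart, and no label ties the muscles of a mouse together, so that p-values measure the spread between these samples. These are whole muscles: in bulk RNA, fewer cells of a type and less RNA per cell cannot be told apart.

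Libraries held 38583802 to 300089909 counts with a median of 72766895, and the members took 0.165% to 0.306% of them with a median of 0.205%. The labelled tissue was checked with 8 skeletal muscle markers, whose summed level had a median of 285300 CPM (counts scaled to the TMM-adjusted library total, here and below) in the female gastrocnemius at 6 months but 66820 CPM in the female diaphragm, where macrophage, fibroblast and interferon-induced genes were higher. In 8 libraries the departures of 11026 other genes from their own group followed the GC content of the transcripts, with a Spearman correlation beyond 0.7 in size, against -0.383 to 0.600 in the other 399. Of these 8, 6 were diaphragm libraries in which GC-rich members were low: Psmb5 was as low as 0.966 CPM in a male library at 6 months, where the group median was 11.7 CPM. Numbers of members called in the diaphragm are therefore given with and without these libraries. The other two were a female gastrocnemius library at 27 months and a male gastrocnemius library at 12 months.

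RefSeq promoter windows of GRCm38.p6, from 250 bases before to 50 bases after a transcript start, matched 39 of the 47 members with 42 windows. The 250 bases before the start are shown for 4 members on which the results below turn: Psmd11, a regulatory subunit that rose; Psmc6, an ATPase that rose; the catalytic subunit Psmb6; and Psme4, an activator that fell in some muscles. All lie on the plus strand and are written 5′ to 3′, at chr11:80428365-80428614, chr14:45329574-45329823, chr11:70525107-70525356 and chr11:30771525-30771774 in that order. Capitals mark matches, on either strand, to the antioxidant response element core TGACNNNGC, the kind of element that the factors encoded by Nfe2l1 and Nfe2l2 bind, and to the ETS motif CCGGAAG that lie wholly within the bases shown.
Psmd11: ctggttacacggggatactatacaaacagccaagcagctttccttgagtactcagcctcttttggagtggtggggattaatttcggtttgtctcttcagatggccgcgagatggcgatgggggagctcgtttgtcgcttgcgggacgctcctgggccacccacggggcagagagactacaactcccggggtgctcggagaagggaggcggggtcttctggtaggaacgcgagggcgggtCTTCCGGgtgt
Psmc6: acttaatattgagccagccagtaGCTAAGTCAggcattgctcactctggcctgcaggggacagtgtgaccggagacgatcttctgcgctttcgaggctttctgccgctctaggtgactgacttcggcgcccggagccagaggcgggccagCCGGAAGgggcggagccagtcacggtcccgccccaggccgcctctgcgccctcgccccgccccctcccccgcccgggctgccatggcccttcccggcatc
Psmb6: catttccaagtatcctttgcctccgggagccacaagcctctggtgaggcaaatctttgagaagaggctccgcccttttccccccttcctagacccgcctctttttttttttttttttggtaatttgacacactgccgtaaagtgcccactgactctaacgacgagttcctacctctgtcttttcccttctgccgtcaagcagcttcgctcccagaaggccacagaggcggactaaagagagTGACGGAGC
Psme4: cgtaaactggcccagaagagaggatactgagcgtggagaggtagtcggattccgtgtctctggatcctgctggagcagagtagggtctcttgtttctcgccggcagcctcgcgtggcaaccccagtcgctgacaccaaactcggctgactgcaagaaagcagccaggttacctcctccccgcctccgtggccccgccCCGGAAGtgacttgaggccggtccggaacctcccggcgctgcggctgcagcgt

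TGACNNNGC was found in 6 of the 42 member windows (14.3%) and in 12.4% of the 32851 windows of all genes. CCGGAAG was found in 16 member windows (38.1%), from 15 genes, against 8.86% of all windows. GGGCGG, the GC box, was in 23 member windows (54.8%) against 35.7%, CCAAT in 14 (33.3%) against 37.4%, and GCGCATGC, the NRF-1 motif, in 3 (7.14%) against 2.71%. All were searched on both strands, and matches of different motifs were counted whether or not they overlapped. Of the members shown, Psmd11 held CCGGAAG only on the other strand, 11 bases before the start. Psmb6 held TGACNNNGC 9 bases before the transcript start of its window. The RefSeq gene of Psmb6 begins further upstream, at chr11:70525324, so that this match lies within the annotated gene. Psme4 held TGACNNNGC on the other strand, from 7 bases before the start. That match runs past the bases shown and is therefore not in capitals. A match is a description of the letters, not a binding site or a cause of the changes below.

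Levels of different members were compared as CPM per kilobase of the longest GENCODE transcript with a RefSeq link, over all 407 libraries. The beta ring had the highest median, 36.5 CPM per kilobase, followed by the regulatory subunits without ATPase activity (34.7), the ATPases (31.7) and the alpha ring (25.6). The activators and inhibitors had a median of 9.54 and the assembly chaperones of 3.27 CPM per kilobase. The highest members were Psmb7, the trypsin-like catalytic subunit, at 98.5 CPM per kilobase, and the regulatory subunits Psmd8 and Psmd6 at 65.1 and 53.0. Below Psmb7 the order differed between muscles: in the diaphragm the beta subunits Psmb3 and Psmb2, at 37.6 and 37.4, stood above Psmd8 at 29.4, and in the soleus they stood above Psmd6, at 51.0 and 48.7 against 47.2. The catalytic subunits were unequal: Psmb6, the caspase-like one, stood at 32.6 and Psmb5, the chymotrypsin-like one, at 19.2 CPM per kilobase.

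The lowest members were those with a known home in other tissues. Psmb11, the thymus subunit, had a median of 0, Psma8, the testis subunit, of 0.023, and Psmc3ip of 0.506 CPM per kilobase. Psmb11 failed the filter on low counts in every comparison with age and Psma8 in 5 of the 8 muscles by sex, so that 45 or 46 of the 47 members were tested. Psma8 was tested in the diaphragm of both sexes and in the female soleus, with log2 changes of 0.57 ± 0.78, 0.34 ± 0.69 and 0.13 ± 0.76 (SE) at 27 months that did not pass the test. Psme2b, at 0.795 CPM per kilobase, is nearly identical to Psme2, and its counts are uncertain.

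**Figure D1:**
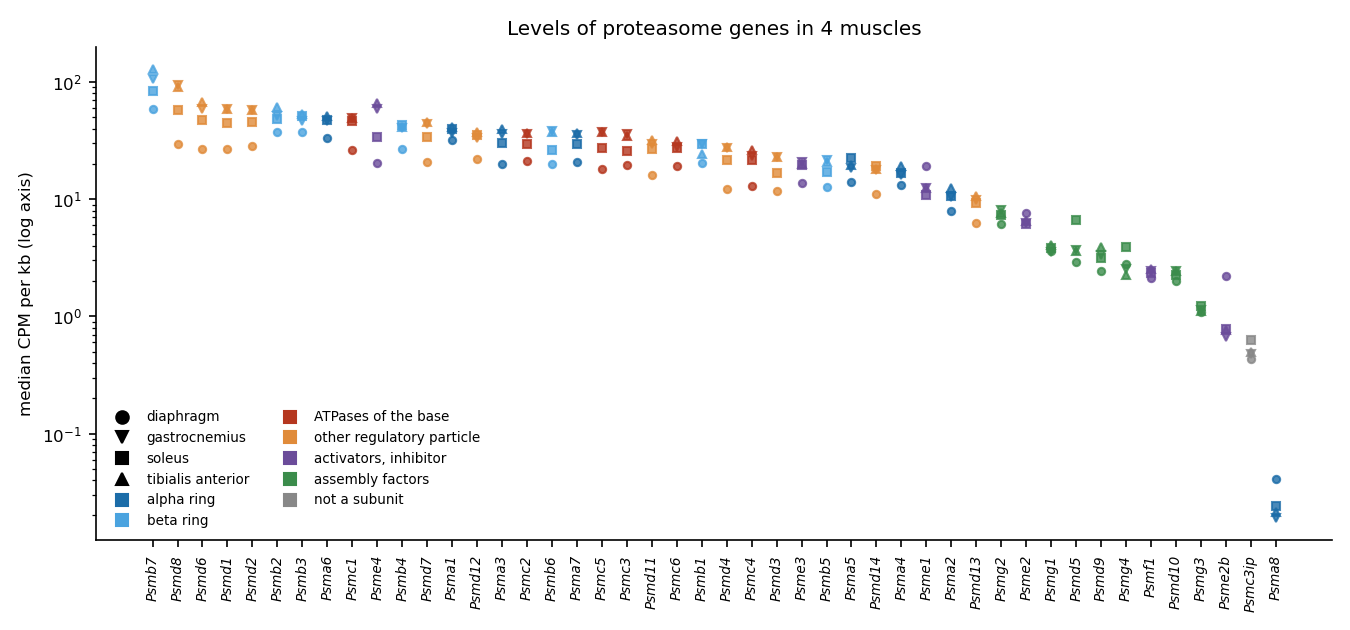
Median CPM per kilobase (y axis, log scale) of each member (x axis, ordered by its median over all libraries) in each of the 4 muscles (symbols), coloured by role; Psmb11 is not drawn because its median is 0. Psmb7 stands first, with 98.5 over all libraries, and the diaphragm circles lie lowest for most core and regulatory particle genes.

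The question the ages address is how expression in each muscle of each sex changed between 6 and 27 months. At 27 months proteasome subunit genes were higher in the gastrocnemius, soleus and tibialis anterior of both sexes and little changed in the diaphragm. The rises were small: apart from Psmd5 in the female soleus, no member that passed the test changed 1.5-fold. In the female gastrocnemius 17 of 45 members rose and 1 fell (edgeR's quasi-likelihood test, adjusted over all genes by Benjamini-Hochberg), where 14.6% of all genes rose and 14.6% fell. In the female tibialis anterior 15 of 45 rose and 1 fell, against 12.1% and 9.84% of all genes. In the female soleus 14 of 46 rose and 1 fell, against 10% and 8.74%. Without library 0 of 6 months in the female soleus, 7 members rose.

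In males 27 of 45 members rose and none fell in the tibialis anterior, where 9.97% of all genes rose and 7.81% fell. In the male gastrocnemius 20 of 45 rose and 2 fell, against 10.6% and 12.6%, and in the male soleus 7 of 45 rose and none fell, against 1.80% and 1.05%. In the male diaphragm 2 of 46 rose and none fell, against 5.13% and 3.52%, with 7 members at an unadjusted p under 0.05, 0 to 3 calls when single libraries were left out, 0 calls by limma-voom and 1 by DESeq2. In the female diaphragm none of 46 passed the test, against 0.624% of genes higher and 0.988% lower, with 2 members at an unadjusted p under 0.05 and none called by limma-voom or DESeq2. Without the libraries with a GC gradient, 1 member was called in the female and 2 in the male diaphragm.

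The median log2 change of the members was 0.197 in the male tibialis anterior, 0.139 in the male gastrocnemius, 0.116 in the male soleus, 0.096 in the female tibialis anterior, 0.094 in the female soleus and 0.089 in the female gastrocnemius. It was 0.045 in the male and 0.003 in the female diaphragm, and the median of all genes lay between -0.026 and 0.028. These changes are relative to TMM scaling, which centres most genes. With library totals alone, the median of all genes moved to -0.216 in the female soleus and to 0.142 in the female gastrocnemius, and in the female soleus the direction of the members turned, with 1 higher, 10 lower and a median of -0.092. Relative to the median of all genes, the members' median in the female soleus was 0.120 with TMM and 0.124 without, and in the male tibialis anterior it was 0.190 and 0.188.

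**Figure D2:**
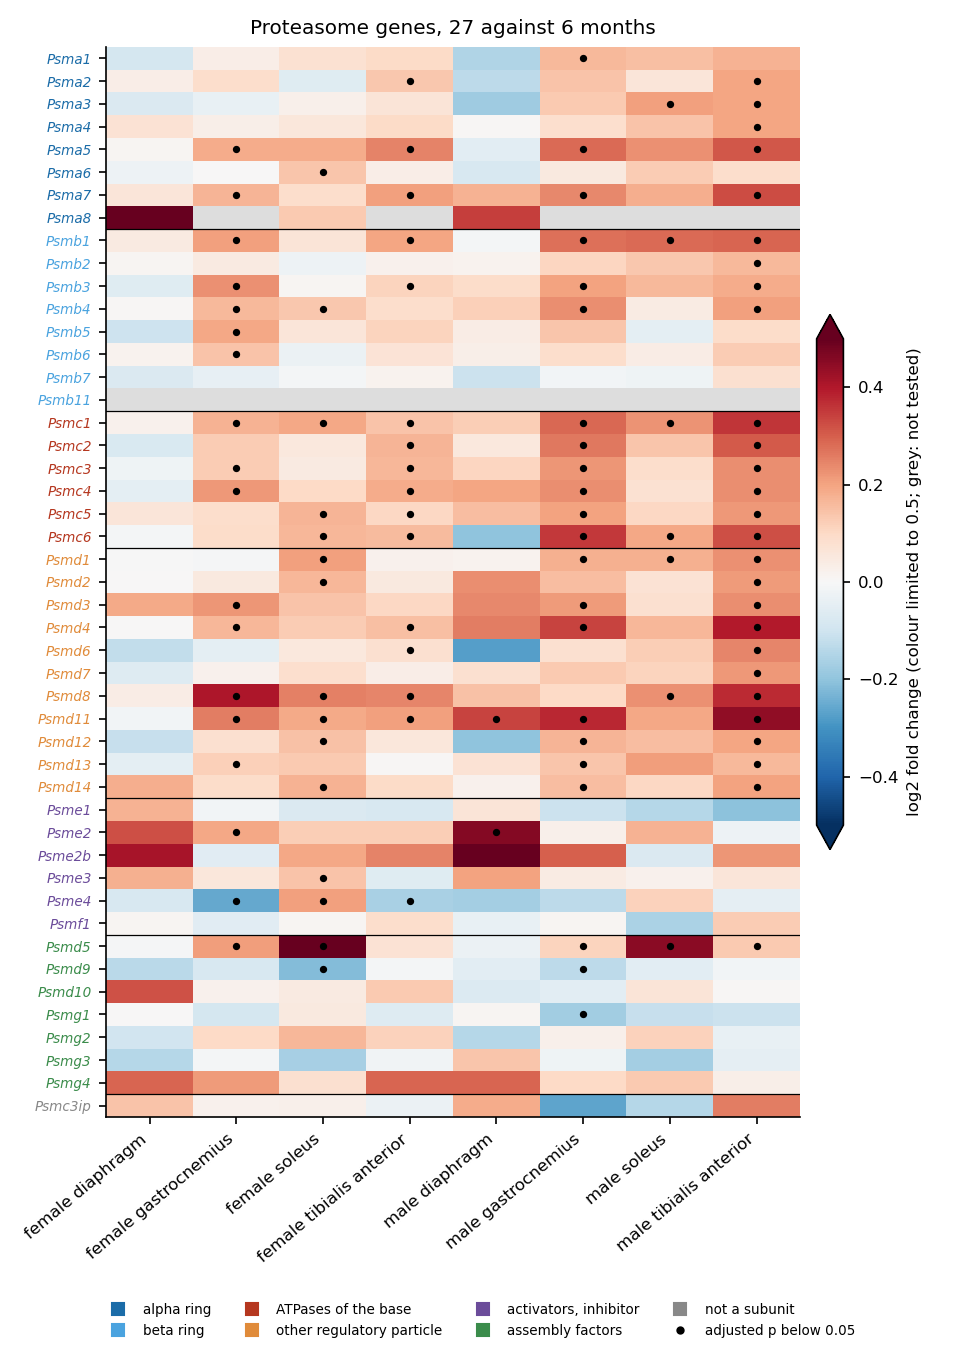
Log2 change at 27 against 6 months (colour, limited to 0.5 in size) for each member (rows, by role) in the 4 muscles of each sex (columns); dots mark an adjusted p below 0.05 and grey marks members not tested. The ATPase and regulatory rows of the hindlimb muscles are mostly red with dots, the diaphragm columns hold 2 dots, and without TMM the female soleus column would turn mostly negative.

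Over the 8 comparisons, 34 of the 45 members tested in all of them rose in at least 1 (75.6%), where 33.3% of the 14182 genes tested in all did so. At least 4 comparisons called 15 members higher (33.3%), against 4.32% of all genes. Psmd11 and Psmc1 rose in 6 comparisons each, although the call of Psmd11 in the male diaphragm was lost under 20 alternatives, limma-voom and DESeq2 among them, and 11 members had a positive change in all 8, against 7.08% of all genes. A fall was called for 3 members in at least 1 comparison, against 33.9% of all genes. The members were more highly expressed than most genes, with a median level of 37.2 CPM against 8.21 and a median SE of 0.061 against 0.099 on the log2 scale, so that smaller changes could pass the test.

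The ATPases of the base, which unfold the substrate and open the gate of the core particle, rose in several muscles. No difference in calls between roles was tested. Over the 8 comparisons 26 of their 48 tests were called higher (54.2%) and none lower, where 8.01% of all tests were higher and 7.32% lower. All 6 rose in the female and male tibialis anterior and in the male gastrocnemius. Psmc1 was the ATPase called most often, and it is named here after its values were seen. In the male tibialis anterior Psmc1 ranged from 69.7 to 73.9 CPM with a median of 71.9 at 6 months, and from 80.0 to 116 CPM with a median of 87.5 at 27 months. The age groups did not overlap, and the log2 change was 0.36 ± 0.05 (SE, edgeR's quasi-likelihood test, adjusted p = 7.26e-07). They did not overlap in the male gastrocnemius either, at 71.9 to 77.4 and 78.6 to 118 CPM.

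Psmc6 was among the members that rose most in the male gastrocnemius, by 0.35 ± 0.09 on the log2 scale (adjusted p = 0.0031). Its levels ran from 41.6 to 60.5 CPM around a median of 57.4 at 6 months and from 50.1 to 93.7 CPM around 65.7 at 27 months, and 9 of 10 old libraries were above every young one. In the male soleus the change of Psmc6 was smaller, 0.19 ± 0.04 (adjusted p = 0.0030), but the groups, 51.9 to 57.0 and 57.5 to 65.3 CPM, did not overlap.

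The other subunits of the regulatory particle form its lid and scaffold and include the ubiquitin receptor Psmd4 and the deubiquitinase Psmd14. Of their 88 tests 36 were called higher (40.9%) and none lower. All 11 rose in the male tibialis anterior, 7 in the male gastrocnemius, 6 in the female soleus, 5 in the female gastrocnemius and 4 in the female tibialis anterior. Psmd11, a lid subunit that bridges the core and the regulatory particle, was the member with the largest rise in the male tibialis anterior and gastrocnemius.

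In the male gastrocnemius Psmd11 ranged from 76.3 to 85.8 CPM with a median of 80.5 at 6 months and from 87.5 to 162 CPM with a median of 94.5 at 27 months. The groups did not overlap, and the change was 0.37 ± 0.07 on the log2 scale, a rise of 29.7% (adjusted p = 1.1e-04). In the male tibialis anterior Psmd11 went from a median of 85.6 CPM (77.3 to 90.3) to 106 CPM (85.4 to 187), and 9 of 10 old libraries were above every young one. That log2 change was 0.44 ± 0.08 (edgeR, adjusted p = 1.3e-04). Females showed smaller rises of Psmd11, by 0.26 in the gastrocnemius, 0.21 in the tibialis anterior and 0.19 in the soleus.

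Psmd8, a lid subunit, showed the largest rise in the female gastrocnemius. It ranged from 84.6 to 96.8 CPM with a median of 91.6 at 6 months and from 83.1 to 137 CPM with a median of 124 at 27 months. 9 of the 10 old libraries lay above every young one and the tenth lay below them all. The tenth library is the one with a GC gradient in that group. The log2 change of Psmd8 was 0.40 ± 0.06, or 32.2% (edgeR, adjusted p = 3.16e-07). It also rose by 0.37 in the male tibialis anterior, 0.25 in the female soleus, 0.25 in the female tibialis anterior and 0.23 in the male soleus, but was 0.10 ± 0.07 in the male gastrocnemius (adjusted p = 0.34), where its level at 6 months was 160.5 to 212 CPM.

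Psmd4 was the second of the male tibialis anterior, at 31.3 to 37.5 CPM around 33.4 at 6 months and 37.5 to 57.8 CPM around 41.0 at 27 months. No old library was below the highest young one, and the log2 change was 0.40 ± 0.07 (edgeR, adjusted p = 8.0e-05). In the male gastrocnemius Psmd4 rose by 0.34. Psmd1, a large scaffold subunit, was among the 3 largest rises of the female soleus, from 104 to 131 CPM around 118 to 118 to 151 CPM around 141, by 0.21 ± 0.05 (edgeR, adjusted p = 9.6e-04). With library totals alone this call of Psmd1 and that of Psmd8 in the female soleus were lost.

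**Figure D3:**
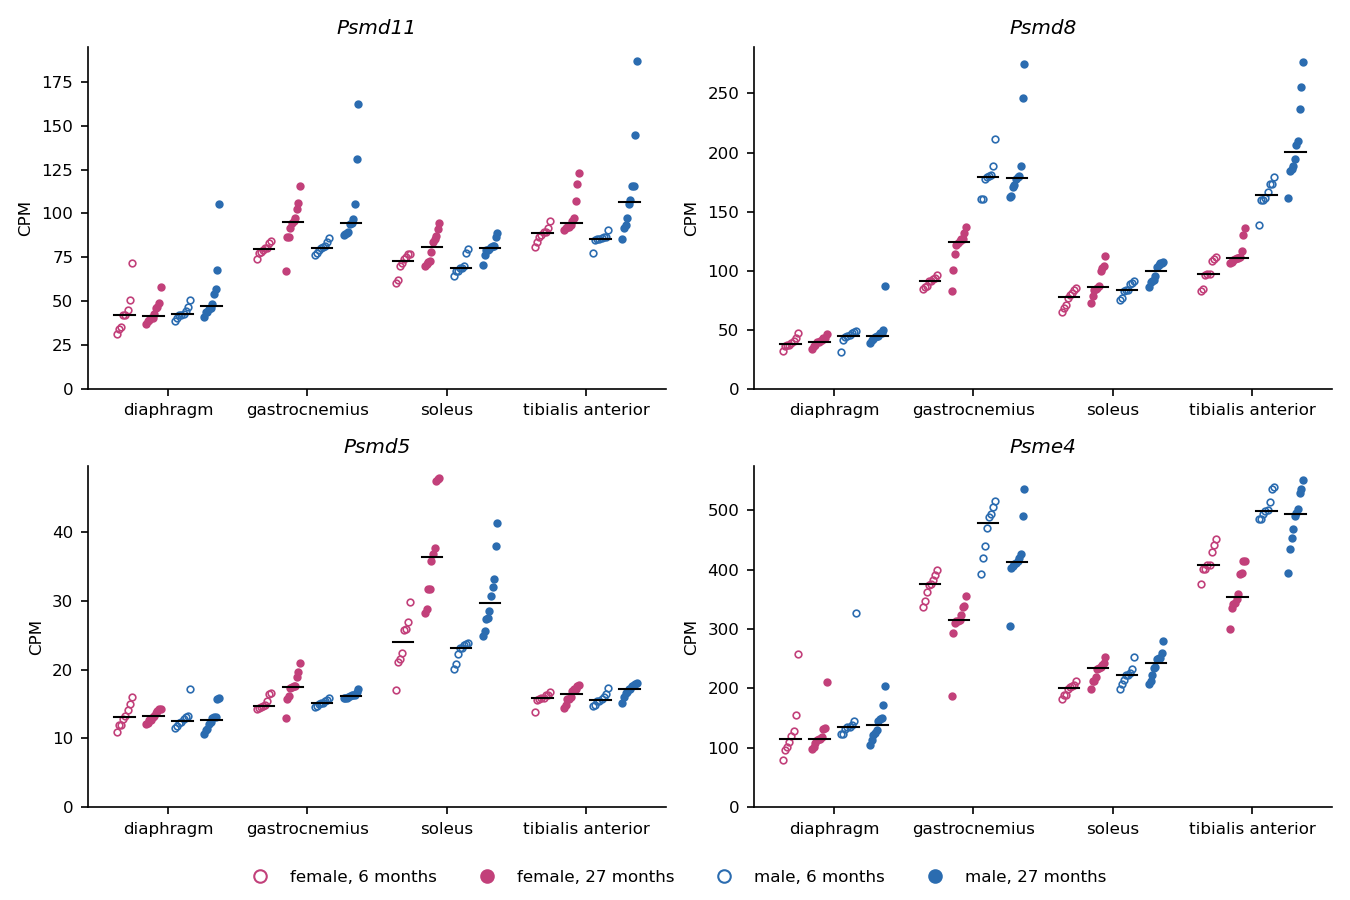
CPM of Psmd11, Psmd8, Psmd5 and Psme4 in every library at 6 and 27 months in each muscle and sex, each point a library, points ordered by value, with lines at the group medians. In the male gastrocnemius the Psmd11 points of the 2 ages do not overlap, from 76.3 to 85.8 and from 87.5 to 162, while the female soleus shows the Psmd5 rise.

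The core particle gave rises and no falls. Of the alpha ring 15 of 59 tests (25.4%) and of the beta ring 16 of 56 (28.6%) were called higher, and none lower. Psma5 rose in 4 comparisons and was the largest rise of the female tibialis anterior, from 20.4 to 23.9 CPM around 22.3 to 23.1 to 32.1 CPM around 25.3. There 9 of 10 old libraries were above every young one, and the log2 change was 0.25 ± 0.04 (edgeR, adjusted p = 2.1e-05). Psmb3, a beta subunit without catalytic site, was among the 3 largest rises of the female gastrocnemius, at 30.9 to 35.4 CPM around 32.8 at 6 months and 34.6 to 42.8 CPM around 38.7 at 27 months. Its log2 change was 0.23 ± 0.03 (edgeR, adjusted p = 7.2e-07). Psmb1, likewise not catalytic, rose in 5 comparisons, by 0.28 ± 0.06 in the male soleus, where it went from 41.7 to 50.4 CPM around 44.4 to 49.9 to 57.3 CPM around 55.2 (adjusted p = 0.0026).

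Psmb5 and Psmb6 rose in the female gastrocnemius, the single comparison that called them. Psmb5 went there from a median of 18.9 CPM (17.1 to 20.1) to 20.8 CPM (18.4 to 30.0), with overlapping groups and a log2 change of 0.19 ± 0.06 (edgeR, adjusted p = 0.014). Psmb6 went from 29.5 CPM (28.3 to 31.6) to 32.8 CPM (27.8 to 41.0), by 0.14 ± 0.04 (edgeR, adjusted p = 0.0098). Psmb7 passed in no comparison by edgeR, with log2 changes from -0.11 to 0.08 and an unadjusted p under 0.05 in the male tibialis anterior only.

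The activators, which open the core particle in place of the regulatory particle, had calls in both directions. With the inhibitor Psmf1 they gave 4 higher (8.33%) and 2 lower calls in 48 tests. That share of rises was near the one over all tests, of which 8.01% were higher and 7.32% lower. Psme4, which encodes the large nuclear activator, was the member with the largest fall in the female gastrocnemius: it ranged from 338 to 400 CPM around 375 at 6 months and from 187 to 356 CPM around 315 at 27 months. 8 of the 10 old libraries were below every young one, and the log2 change was -0.26 ± 0.06 (edgeR, adjusted p = 8.4e-04), a call that was lost with the GC gradient of each library as a covariate. It fell in the female tibialis anterior too, from 407 CPM (375 to 451) to 354 CPM (299 to 415), by -0.16 ± 0.05 (adjusted p = 0.013).

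In the female soleus Psme4 rose instead, from 201 CPM (182 to 212) to 234 CPM (198 to 252), by 0.21 ± 0.05 (edgeR, adjusted p = 0.0022). Without TMM neither this rise nor the fall in the tibialis anterior was called. In males its changes were -0.13 in the gastrocnemius, -0.04 in the tibialis anterior and 0.11 in the soleus, none past the test.

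Of the interferon-inducible activators, Psme2 rose in the female gastrocnemius from 5.61 CPM (5.11 to 6.11) to 6.11 CPM (5.58 to 7.75), by 0.19 ± 0.06 (edgeR, adjusted p = 0.013). In the male diaphragm it went from 5.90 CPM (3.08 to 7.53) to 7.23 CPM (6.51 to 10.9), by 0.46 ± 0.14 (adjusted p = 0.033), but the call was lost without the libraries with a GC gradient. Its partner Psme1 was called in no comparison at 27 months by edgeR, with 1 of 8 at an unadjusted p under 0.05 (male tibialis anterior, -0.21). Psme3, which encodes the activator found in the nucleus, rose in the female soleus from 46.3 CPM (39.6 to 53.9) to 52.0 CPM (48.8 to 55.5), by 0.14 ± 0.04 (edgeR, adjusted p = 0.021). Psmf1 was called in none, with log2 changes from -0.16 to 0.13.

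The assembly chaperones, which build the particle and leave it, gave 5 higher (8.93%) and 3 lower calls in 56 tests. As a role they were thus near the share over all tests, 8.01% higher and 7.32% lower. All 5 higher calls were Psmd5, a chaperone of the base. In the female soleus Psmd5 ranged from 17.1 to 29.8 CPM around 24.1 at 6 months and from 28.2 to 47.7 CPM around 36.3 at 27 months. 8 of the 10 old libraries were above every young one, with a log2 change of 0.65 ± 0.12 or 57.0% (edgeR, adjusted p = 1.4e-04). In the male soleus the groups, 20.1 to 23.9 CPM around 23.2 and 24.9 to 41.2 CPM around 29.6, did not overlap, and the change of Psmd5 was 0.45 ± 0.11 (edgeR, adjusted p = 0.014). In the gastrocnemius it was 0.21 in females and 0.11 in males, and 0.13 in the male tibialis anterior.

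Another chaperone of the base, Psmd9, had a negative change in all 8 comparisons. It fell in the female soleus, from 8.54 CPM (7.33 to 9.77) to 7.62 CPM (5.44 to 9.99), by -0.22 ± 0.08 (adjusted p = 0.047), and in the male gastrocnemius, from 8.85 CPM (8.53 to 9.51) to 8.17 CPM (6.76 to 8.87), by -0.13 ± 0.05 (adjusted p = 0.038). Psmg1, a chaperone of the alpha ring, fell in the male gastrocnemius from 3.94 CPM (3.32 to 4.77) to 3.54 CPM (2.87 to 3.91), by -0.17 ± 0.06 (adjusted p = 0.042). All 3 falls were just past the threshold of edgeR's test and were lost under several alternatives, DESeq2 among them. Psmc3ip passed in no comparison by edgeR, at log2 changes from -0.26 to 0.25.

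Most rises were called late. At 12 months no member was called in any muscle by edgeR's test, with 0 to 12 members at an unadjusted p under 0.05. Of all genes 0.527% were then called in the tibialis anterior, 0.221% in the soleus, 0.579% in the gastrocnemius and 0.00% in the diaphragm of females, and 0.338%, 0.117%, 1.08% and 0.0622% in those of males. In the female soleus 4 of 46 members were higher at 18 months, 18 at 21 months and 21 at 24 months, and none lower, where 5.68%, 22.7% and 23.3% of all genes were called in either direction. With library totals alone this direction turned: 1 member was higher at each of these ages, and 0, 12 and 7 were lower. In the female gastrocnemius 1, 2 and 6 of 45 were higher and 0, 0 and 2 lower at the same ages, against 9.60%, 15.8% and 19.2% of all genes. With library totals alone 2, 10 and 26 were higher there and none lower, and without the library with a GC gradient 1, 3 and 14 were higher and 0, 3 and 2 lower. In the female tibialis anterior 0, 4 and 8 were higher and 0, 0 and 1 lower, against 4.53%, 10.7% and 16.3%, and with library totals alone 0, 1 and 1 were higher and none lower.

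The male soleus had 0, 1 and 8 of 45 members higher and none lower at 18, 21 and 24 months, where 0.489%, 1.37% and 4.46% of all genes were called, and the male tibialis anterior 0, 0 and 3 higher, where 1.93%, 6.78% and 15.4% were called. With library totals alone 0, 1 and 11 members were higher in either muscle. The male gastrocnemius had no member higher before 27 months, and Psmd9 was lower at 21 and 24 months, where 2.99%, 10.2% and 14.6% of all genes were called at 18, 21 and 24 months. At 24 months 7 members were higher there with library totals alone, and 3 without the library with a GC gradient. In the diaphragm 1 member was higher at 24 months in females (Psmd8, 0.24, against 3.33% of all genes) and 1 at 21 months in males (Psme3, 0.27, against 10.7%), and none at 18 months, against 0.222% of all genes in females and 0.199% in males. Without the libraries with a GC gradient 1 member was higher in the female diaphragm at 21 months and 3 at 24 months, and 2 in the male diaphragm at 21 months, and with library totals alone none was called in either sex at these ages. At 27 months 21.9% of all genes were called in either direction in the tibialis anterior, 18.8% in the soleus, 29.3% in the gastrocnemius and 1.61% in the diaphragm of females, and 17.8%, 2.85%, 23.3% and 8.65% in those of males.

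Psmd5 in the female soleus was the only member called with a change past 1.5-fold at any age, where 8.52% of all genes in that muscle and sex did so at some older age. Its median level was 24.1, 29.4 and 33.3 CPM at 6, 12 and 18 months and 39.3, 36.9 and 36.3 CPM at 21, 24 and 27 months. The log2 change of Psmd5 was 0.32 ± 0.13 at 12 months, which did not pass (adjusted p = 0.41), and 0.55, 0.71 and 0.67 at 18, 21 and 24 months (edgeR, adjusted p = 0.0070, 6.1e-05 and 8.8e-05). The level thus reached its highest median at 21 months and stayed above the median at 6 months.

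**Figure D4:**
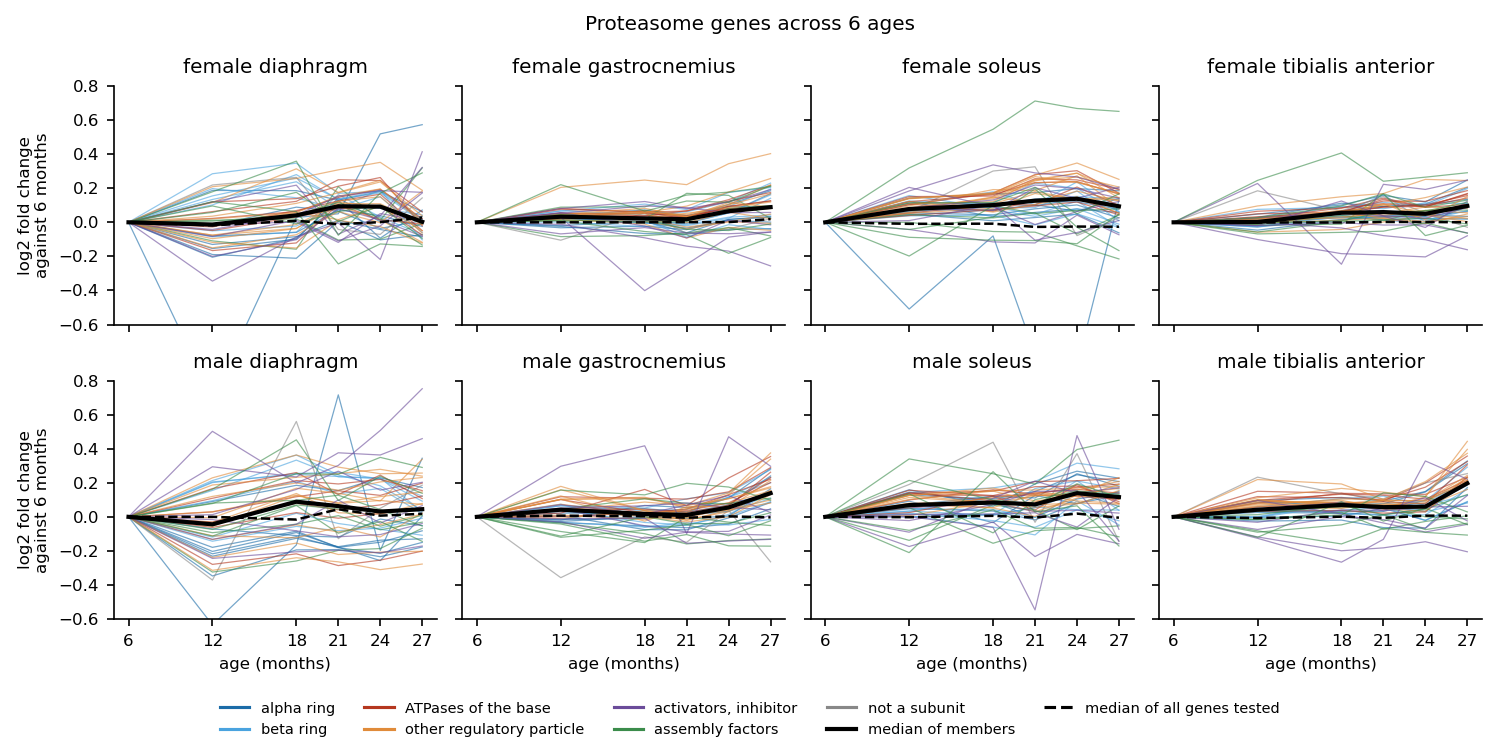
Log2 change against 6 months (y axis) at 12 to 27 months (x axis, months) for each member tested in a muscle and sex, coloured by role, with the median of members (thick line) and of all genes tested (dashed) and the axis limited to -0.6 to 0.8, so that some Psma8 values fall outside. The female soleus lines lift by 18 to 21 months and Psmd5 reaches 0.71, though without TMM most calls there would be lower, whereas the male gastrocnemius and tibialis anterior lines lift at 27 months.

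The 31 core and regulatory subunits, without Psma8 and Psmb11, were also averaged in each library as log2(CPM + 0.5), as a description. The median of this mean went from 5.71 at 6 months to 5.90 at 27 months in the male tibialis anterior, from 5.69 to 5.77 in the male gastrocnemius and from 5.44 to 5.54 in the male soleus. In females it went from 5.64 to 5.76 in the gastrocnemius, from 5.72 to 5.78 in the tibialis anterior and from 5.44 to 5.53 in the soleus, where the highest median, 5.59, came at 24 months. In the diaphragm it went from 4.79 to 4.81 in females and from 4.92 to 4.89 in males, with all libraries. In the female diaphragm it was higher between these ages, at 4.93, 4.98 and 4.98 at 18, 21 and 24 months. In the male diaphragm it reached 5.06 at 18 months. The age groups overlapped in every muscle, and single old libraries reached 6.20 in the male tibialis anterior and 6.18 in the male gastrocnemius. Without the 2 male gastrocnemius libraries with the highest member share at 27 months, 14 members rose, none fell and the median log2 change was 0.088 in place of 0.139.

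The subunits varied together between mice of an age in the hindlimb muscles, and less evenly in the diaphragm. Across the 465 pairs of the 31 subunits, the median Pearson correlation of the departures from the age group means was 0.66 in the female gastrocnemius, 0.59 in the male gastrocnemius, 0.56 and 0.53 in the male and female tibialis anterior, 0.39 and 0.29 in the female and male soleus, and 0.39 and 0.36 in the female and male diaphragm. In the hindlimb muscles 91.2% to 98.1% of the pairs had a positive correlation, but in the diaphragm 66.2% in females and 60.2% in males. The libraries behind each value numbered 48 to 52, and pairs over all genes had medians between -0.010 and 0.005. These correlations are descriptions: the genes share libraries, depth and, in the diaphragm and gastrocnemius, the GC gradient of single libraries.

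**Figure D5:**
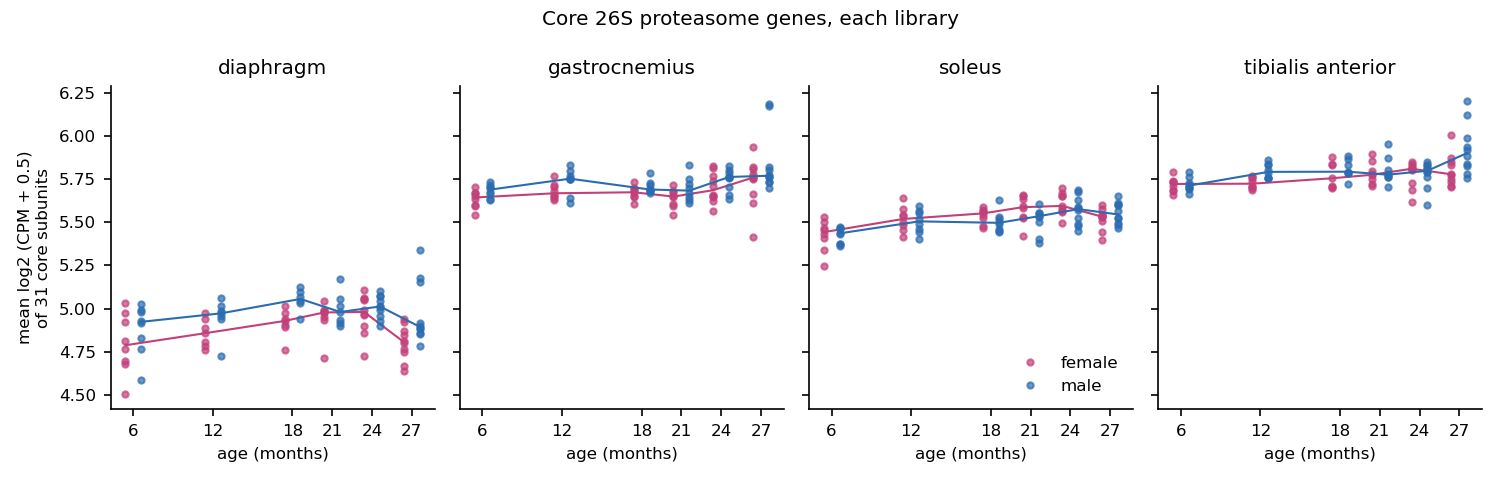
Mean log2(CPM + 0.5) of the 31 core and regulatory subunits in each library (points) by age in months (x axis), muscle and sex, with lines joining the group medians. The diaphragm lies lowest, with medians from 4.79 to 5.06, and the male tibialis anterior ends highest at 5.90.

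The muscles differed in their levels at 6 months. Against the gastrocnemius, members were lower in the diaphragm: 34 of 45 lower and 3 higher in females, where 32.1% of all genes were lower and 40.4% higher, and 30 lower and 2 higher in males, against 28.4% and 38.3%. The members' median relative to that of all genes was -0.74 in females and -0.61 in males. With library totals alone it was -0.73 and -0.65, but the median of all genes then rose to 0.942 and 0.739, and the members' direction turned, with 8 lower and 23 higher in females and 11 lower and 18 higher in males. Without the libraries with a GC gradient, 38 were lower and 4 higher in females, and 37 and 2 in males. The 11 regulatory subunits without ATPase activity were all lower in both sexes.

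Psme4 showed the largest difference in the female diaphragm, 80.4 to 259 CPM around 115 against 338 to 400 CPM around 375 in the gastrocnemius, a log2 difference of -1.47 ± 0.14 (edgeR, adjusted p = 4.9e-11), or 2.77-fold lower. The groups did not overlap. Psmd4 and Psmd3 followed, with medians of 15.0 and 20.1 CPM against 32.8 and 46.7 CPM and log2 differences of -1.25 and -1.24. The calls of Psmd4 and Psmd3 were lost with library totals alone. In males Psmd8 differed most, at 31.2 to 48.6 CPM around 44.9 against 161 to 212 CPM around 180, or 3.94-fold lower (log2 -1.98 ± 0.08, edgeR, adjusted p = 2.0e-20). Without the libraries with a GC gradient, Psme4 in both sexes and Psmd8 in males were still called lower. Psme1 and Psme2b were higher in the diaphragm of both sexes and Psme2 in females. Psme1 had a median of 20.0 CPM there against 13.7 CPM in females, and 21.0 against 14.8 in males.

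These differences went with tissue composition. In the diaphragm at 6 months, all 12 macrophage markers and 6 of 8 fibroblast markers were higher than in the gastrocnemius in both sexes, as were 15 of 16 interferon-induced genes in females and 14 in males, and 6 of 8 skeletal muscle markers were lower. The summed skeletal muscle level was 35320 to 117600 CPM in the female and 70100 to 98430 CPM in the male diaphragm, against 272400 to 311700 and 254200 to 295900 CPM in the gastrocnemius. The part of this in the members' difference was not tested.

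In the soleus 13 members were lower and 3 higher in females, where 22.7% of all genes were lower and 28.3% higher, and 15 were lower and 3 higher in males, against 21.3% and 25.1%. With library totals alone the counts turned, to 2 lower and 29 higher in females and 5 lower and 11 higher in males. Psme4 was lower by -0.89 in the female and -1.03 in the male soleus, where another member had the largest difference, -1.06. Psmd5 was higher, at 24.1 against 14.7 CPM in females and 23.2 against 15.1 CPM in males, by 0.67 ± 0.08 and 0.61 ± 0.06 (edgeR, adjusted p = 5.1e-08 and 8.8e-10). The groups did not overlap in either sex. Psmg4, a chaperone of the alpha ring, and Psma5 were the other members that were higher in the soleus of both sexes, Psmg4 by 0.81 and 0.63 and Psma5 by 0.24 and 0.21.

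The tibialis anterior was close to the gastrocnemius. Psmd13, a lid subunit, was higher in females, at 19.8 to 23.1 CPM around 22.0 against 16.7 to 21.0 CPM around 18.3, by 0.20 ± 0.06 (edgeR, adjusted p = 0.019), the only call, where 7.66% of all genes were higher and 8.51% lower. In males edgeR called no member, with 2 at an unadjusted p under 0.05 and 0 by limma-voom and DESeq2, where 5.90% and 6.69% of all genes were called. Without the diaphragm libraries with a GC gradient, which share this fit, 10 members were higher and 1 lower in each sex.

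The sexes differed at 6 months in a few members of the hindlimb. Psmd8 was 84.6 to 96.8 CPM around 91.6 in the female and 161 to 212 CPM around 180 in the male gastrocnemius, with no overlap and a log2 difference of female minus male of -0.97 ± 0.07 (edgeR, adjusted p = 5.7e-22). In the tibialis anterior Psmd8 was 82.8 to 112 CPM around 97.2 in females and 139 to 180 CPM around 164 in males, also without overlap (-0.74 ± 0.07, adjusted p = 8.6e-16). In the soleus the medians were 78.1 and 83.8 CPM and in the diaphragm 38.0 and 44.9 CPM, differences that did not pass. Psme4 was lower in females in the gastrocnemius and tibialis anterior, by -0.31 and -0.29, and Psmg4 in the tibialis anterior, by -0.37. That made 2 of 45 members in the gastrocnemius, where 19.8% of all genes differed, 3 of 45 in the tibialis anterior, where 13.6% did, and none of 46 in the soleus and diaphragm, where 8.41% and 0.512% did. In those 2 muscles 6 and 3 members had an unadjusted p under 0.05, and limma-voom called 0. With library totals alone 22 soleus members were higher in females and none lower, at a median of 0.205 against 0.243 for all genes. Then 2 members were higher and 2 lower in the gastrocnemius, and 6 higher and 2 lower in the tibialis anterior.

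Whether the age changes themselves differed was tested with interaction terms. Against the gastrocnemius, the change of Psmd5 was larger in the female soleus, by 0.44 ± 0.12 on the log2 scale (edgeR, adjusted p = 0.038), the only call among 46 members, where 1.79% of all genes were called. In the female diaphragm and tibialis anterior and in the 3 male comparisons no member was called by edgeR or limma-voom, with 0 to 6 at an unadjusted p under 0.05, where 0.00% to 1.53% of all genes were called. Without the libraries with a GC gradient, 3 members were called in the female diaphragm, 2 in the female soleus and 1 in the male soleus. The call of Psmd5 was lost with the replicate number as a block (adjusted p = 0.053) and with library totals alone, where 15 members were called in the female diaphragm and 15 in the female soleus.

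Between the sexes, the age change was smaller in the female than in the male tibialis anterior for Psmc1 (-0.22 ± 0.06), Psmd1 (-0.21 ± 0.06) and Psmd6, a lid subunit (-0.16 ± 0.05), with adjusted p = 0.035, 0.041 and 0.049 by edgeR's test, where 1.73% of all genes were called. limma-voom called 0, and so did the fit without TMM. Psmd6 went from 83.8 to 91.0 CPM around 87.5 to 94.6 to 117 CPM around 100.1 in the male tibialis anterior, without overlap, and from 86.0 to 95.8 CPM around 90.5 to 84.3 to 103 CPM around 95.4 in the female one. In the other 3 muscles none was called by edgeR or limma-voom, with 2 to 8 at an unadjusted p under 0.05, where 0.00% of all genes were called in the diaphragm, 1.60% in the gastrocnemius and 0.855% in the soleus.

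Other genes of the pathway were read in the same fits. Nfe2l1, which encodes the transcription factor that induces proteasome genes, rose in the gastrocnemius of both sexes, the female soleus and the male tibialis anterior. In the female gastrocnemius Nfe2l1 ranged from 391 to 441 CPM around 415 at 6 months and from 462 to 639 CPM around 541 at 27 months, without overlap (0.43 ± 0.05, edgeR, adjusted p = 3.5e-09). In the female soleus it rose from 383 to 530 CPM around 485 to 558 to 767 CPM around 630, again without overlap (0.45 ± 0.08, adjusted p = 8.8e-05). In the female tibialis anterior Nfe2l1 stood at a median of 521 and 520 CPM (0.05 ± 0.04, edgeR, adjusted p = 0.37). Nfe2l2, which encodes the related factor of the oxidative stress response, rose in the male gastrocnemius (0.47) and tibialis anterior (0.53). Of the 7 genes of this regulatory list, 0 to 3 rose per comparison and 2 fell in the female gastrocnemius, and Maff, a dimer partner, rose by 1.16 in the male tibialis anterior. The part of these factors in the members' changes was not tested.

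Of 12 tested subunits, assembly factors and bound proteins with other names, 5 rose and 1 fell in the male gastrocnemius and in the male tibialis anterior, 3 rose and 3 fell in the female gastrocnemius, 3 rose and none fell in the female soleus and 3 rose and 1 fell in the female tibialis anterior. In the male diaphragm 1 rose and 2 fell, and in the female diaphragm and male soleus edgeR called none. Adrm1, a ubiquitin receptor of the regulatory particle, and Pomp, the chaperone of the beta rings, rose in the gastrocnemius of both sexes and in the male tibialis anterior, Adrm1 by 0.25, 0.25 and 0.27 and Pomp by 0.14, 0.26 and 0.23. Of the 9 tested shuttle factors and cofactors of the ATPase Vcp, 6 rose in the male tibialis anterior, 5 in the male gastrocnemius and female soleus, 4 in the female tibialis anterior, 2 in the female gastrocnemius and male soleus, 1 in the male and none in the female diaphragm, and 1 fell in the female gastrocnemius and 1 in the female tibialis anterior. Nploc4, a Vcp cofactor, rose in 7 of the 8 comparisons, by 0.15 to 0.40.

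Ubb, a polyubiquitin gene, was called in no comparison by edgeR, at log2 changes from -0.02 to 0.15. In the male tibialis anterior Ubb ranged from 369 to 457 CPM around 401 at 6 months and from 360 to 569 CPM around 409 at 27 months, with overlap (0.15 ± 0.06, edgeR, adjusted p = 0.093).

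The immunoproteasome genes, left out of the members, passed the test in 3 of the 8 comparisons. All 3 rose in the female gastrocnemius (Psmb8 by 0.62, Psmb9 by 0.94 and Psmb10 by 0.34), Psmb8 and Psmb9 in the female tibialis anterior (0.85 and 0.89) and in the male diaphragm (1.27 and 1.2), and none in the other 5 comparisons. Of these 5, the female diaphragm had a median log2 change of 1.02 over the 3 genes that did not pass. The rest had medians from -0.12 to 0.17. The male tibialis anterior had Psmb8 at a median of 1.14 CPM at 6 and 1.37 CPM at 27 months (0.30 ± 0.25, edgeR, adjusted p = 0.45). Of 16 interferon-induced genes, 9 rose in the female gastrocnemius and tibialis anterior, 6 in the male diaphragm, 3 in the female soleus, 1 each in the male gastrocnemius and tibialis anterior and none in the female diaphragm and male soleus.

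Markers of other cell types changed with age in the same libraries. Of 8 fibroblast markers, 6 fell in the gastrocnemius of both sexes and in the male tibialis anterior, 8 in the female soleus, 3 in the female tibialis anterior and male soleus and 2 in each diaphragm. Their summed level in the male tibialis anterior was 817 to 1271 CPM at 6 months and 395 to 811 CPM at 27 months, without overlap. In the female soleus the 8 skeletal muscle markers summed to 140200 to 184900 CPM at 6 months and 194500 to 259400 CPM at 27 months, again without overlap, and 3 of them rose. Their median log2 change was 0.09. Ttn weighs most in such sums, with a median of 185000 CPM over all libraries against 24050 CPM for Neb, the next. In the male diaphragm all 7 tested T cell markers rose, from sums of 1.33 to 2.79 CPM to sums of 1.1 to 34.4 CPM. In the female tibialis anterior all 8 hepatocyte markers rose, from sums of 1.61 to 22.3 CPM to sums of 4.94 to 619 CPM, and in the male diaphragm a library at 27 months reached 10620 CPM. Of 10 fast fibre markers, 9 fell in the female and 8 in the male gastrocnemius, where 1 rose, and 1 in the male diaphragm, while 2 rose in the female soleus and 1 in the female tibialis anterior. Of 8 slow fibre markers, 7 rose in the female and 5 in the male gastrocnemius, 4 in the female tibialis anterior, where 1 fell, and 1 in the female soleus. Of 12 macrophage markers, 6 rose in the female tibialis anterior, 4 in the male diaphragm, 3 in the female and 2 in the male gastrocnemius, and 3 fell in the female soleus. The T cell markers Cd3d and Gzmk were at 0 in 193 and 247 of the 407 libraries. The part of these shifts in the members' changes was not tested.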

How the data were processed

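Raw counts per gene were deposited by the authors, who made them from paired, strand-specific total RNA reads with ArrayStudio on mm10, counting over their own RefSeq-derived gene models. Its version: not given in the sources used here. Genes were filtered with filterByExpr, scaled by TMM and tested with edgeR 4.0.16 (quasi-likelihood, R 4.3.3), with all ages of a muscle and sex in a fit, and p-values were adjusted by Benjamini-Hochberg over all genes at a threshold of 0.05. CPM were computed from the deposited counts with TMM-adjusted library sizes. Alternatives used limma-voom 3.58.1, DESeq2 1.42.0, other scalings, filters and sample sets. The code was checked on simulated data.

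Members named were the catalytic subunits, activators and inhibitor, up to 3 rising and 3 falling members per comparison, those past a 1.5-fold change, the extremes per kilobase and those failing the filter. Psmc1, Psmc6 in the male soleus, Psmd6 and the further values of named members were added after their values were seen. The members and gene lists were chosen with earlier results of these data known. No library pair was identical, and total counts are given above. Immunoproteasome genes were read as a separate list. Some further genes of the pathway are not reported here.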

Additional observations from a re-analysis of the deposited data

Results flagged for a closer look

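The mean log2(CPM + 0.5) of the 31 core and regulatory subunits held a library far from the others in 3 of 48 groups, where chance alone gives about 1 in 20 groups. The lowest library of the female diaphragm at 21 months (replicate 7) stood at 4.711 against a group median of 4.978. The lowest of the male diaphragm at 12 months (replicate 2) stood at 4.723 against 4.972. The highest of the male soleus at 18 months (replicate 0) stood at 5.631 against 5.496. None of the 3 is a library with a GC gradient.

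By interaction terms, the log2 age change of Psmd5 was larger in the female soleus than in the female gastrocnemius by 0.441. In the tibialis anterior, the change in females minus that in males was -0.215 for Psmc1, -0.208 for Psmd1 and -0.162 for Psmd6.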

How the results depend on the processing

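Numbers of members called are given for settings that moved them by over 1.5 times; the cause was not tested. For rises at 27 months, Bonferroni adjustment left 3 in the female gastrocnemius, 1 in the female soleus, 1 in the female tibialis anterior, 0 in the male diaphragm, gastrocnemius and soleus, and 6 in the male tibialis anterior. With only 6 and 27 months in the fit, 8 rose in the female gastrocnemius, 9 in the female soleus and 0 in the male diaphragm. In the male diaphragm, limma-voom and the run of sample numbers gave 0, and DESeq2, its size factors, no filter and leaving out libraries with liver transcripts gave 1. DESeq2 gave 12 in the male soleus.

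The remaining settings without TMM, on GC or on libraries were chosen after seeing the data. Without TMM, 31, 1 and 23 rose in the female gastrocnemius, soleus and tibialis anterior and 1 in the male diaphragm. At 6 months 8 were then lower in the female diaphragm, 2 in the female soleus, 11 in the male diaphragm and 5 in the male soleus, and 3 and 10 differed in the female and male tibialis anterior. Age changes then differed between muscles for 15 members in the female diaphragm and 15 in the female soleus, and between sexes for 13 soleus members, 1 gastrocnemius member and 0 in the tibialis anterior, where limma-voom also gave 0. Without the libraries with a GC gradient, 1 rose in the female diaphragm, 11 differed in the tibialis anterior of each sex, 23 were lower in the male soleus, and age changes differed for 3, 2 and 1 in the female diaphragm, female soleus and male soleus and between sexes for 1 in the gastrocnemius.

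Leaving out each library in turn gave 11 to 17 rises for the female tibialis anterior, 16 to 24 for the female gastrocnemius, 7 to 16 for the female soleus, 0 for the female diaphragm, 26 to 29 for the male tibialis anterior, 15 to 25 for the male gastrocnemius, 6 to 9 for the male soleus and 0 to 3 for the male diaphragm. With the replicate block, 0 rose in the male diaphragm and 0 age changes differed in the female soleus. Replicate numbers did not pair ages: no muscle and sex had every same-number correlation over 0.1. Between muscles every pair was over 0.1 in the female tibialis anterior at 6 months (8 of 8, 7 closest to their own number) and the male one at 27 months (10 of 10, 9), a hint from the data, not the design. The 58 values of single members, up to 3 rising and 3 falling calls per comparison with the largest changes, were fitted again under the other settings. None turned direction, but this choice made a turn unlikely. The direction of the members as a whole did turn without TMM in some comparisons, as given above. A call was lost in 53 of the fits of these 58 values under planned settings, 23 under added ones and 56 with a library left out. The same values recur in these counts, most often Psmd11 and Psme2 in the male diaphragm, Psmd9, and Psmg1.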
